A study of Rattus norvegicus with 24 samples.

Results

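The heat shock proteins and chaperones described here are 10 genes, Hsf1, Hspb1, Cryab, Dnajb1, Hsph1, Fkbp4, Hspa8, Hspa5, Hsp90b1 and Hspd1, of 5147 genes named on the array. They were taken as every probe set whose annotated gene symbol is one of them, which gave 24 probe sets for 9 genes. Hspa8 had 0 probe sets of its own: 2 probe sets carry its symbol together with Haus8l2, and their values are given under both names because the array cannot tell the genes apart. Another probe set carries Asb2 together with Hspb1 and was left out of the counts. Whole rat brain RNA was read on 24 oligonucleotide arrays of 1 colour, 1 array per sample. Exposed rats had breathed 0.8% halothane, with 3 arrays for a course of 5 exposures and 3 for a course of 10, or 1.0% isoflurane, again with 3 arrays per course of 5 or 10, and they were set against 12 controls. Each exposure to these inhaled anaesthetics lasted 90 min, 2 were given per day with 3 h of recovery in between, and the courses took 2.5 or 5 days. The controls also received halothane, for 3 min, before the animal was perfused with ice-cold saline, so no group was free of an anaesthetic. Strain, age and sex are not given in the sources used here, nor is the interval from the final exposure to perfusion. The labels do not say that replicates are separate animals, so p-values here cover array-to-array spread, part of which may be technical.

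Chaperones bind unfolded protein and help it fold, or hold it until it can be refolded or degraded. Hsf1 is the transcription factor that switches on cytosolic chaperone genes when unfolded protein builds up, by binding repeats of the short heat shock element in their promoters. The endoplasmic reticulum and the mitochondria have chaperones of their own, with separate stress responses, and neurons and glia express many of these genes without any stress.

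No member probe set passed the test in any comparison. Among the 24 member probe sets, 0 had an adjusted p under 0.05 (limma, Benjamini-Hochberg over all 7389 probe sets tested) after 5 halothane exposures, where 0.0135% of all probe sets did, and 0 after 10 halothane exposures, against a background of 0.0406%. The counts were likewise 0 after 5 and after 10 isoflurane exposures, with 0.0% of all probe sets called in each. All 24 member probe sets had passed the filter on low values. At an unadjusted p under 0.05, 2 member probe sets were higher after 5 halothane exposures (background 1.65%), 4 were lower after 10 halothane exposures (4.14%), 1 was lower after 5 isoflurane exposures (1.00%) and 6 were lower after 10 isoflurane exposures (4.59%). The 6 probe sets belong to Hspb1, Dnajb1, Hsf1 and Hsp90b1. The 2 higher ones belong to Cryab and Hspa5, and that of Hspa5 lies near the floor. In the opposite direction 0 member probe sets did so in each of these comparisons, with backgrounds of 1.88%, 3.38%, 1.14% and 4.47% in the same order. Log2 fold changes against control were below 0 for 18 of 24 member probe sets after 10 isoflurane exposures, where 50.5% of all probe sets were below 0, and their median was -0.19, against -0.0027 over all probe sets. After 5 halothane, 10 halothane and 5 isoflurane exposures, the members' medians were -0.070, -0.10 and -0.062, against -0.0077, -0.033 and 0.0064 over all probe sets. Members were chosen with earlier results of these data known, and probe sets of the same gene are repeat readings on the same arrays. The member counts and medians in this paragraph are therefore descriptions, and an excess over the background was not tested. The 95% interval of a member's log2 fold change against control reached 0.33 to either side at the median. With all exposed groups averaged, 0 of 24 member probe sets were called, against 0.0% of all, and 7 were lower at an unadjusted p under 0.05 (background 4.41%). Between exposed groups 0 members passed in any comparison. At an unadjusted p under 0.05, Hsf1 and Hspb1 were lower after 10 than after 5 isoflurane exposures (2 probe sets, background 1.60%) and Fkbp4 was lower after 10 than after 5 halothane exposures (1, background 1.91%). Cryab, Dnajb1 and Fkbp4 were higher after 5 halothane than after 5 isoflurane exposures (3, background 1.39%), and Dnajb1 after 10 (1, background 1.20%). In this bulk tissue, fewer cells of a type and less RNA per cell cannot be told apart.

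**Figure D1:**
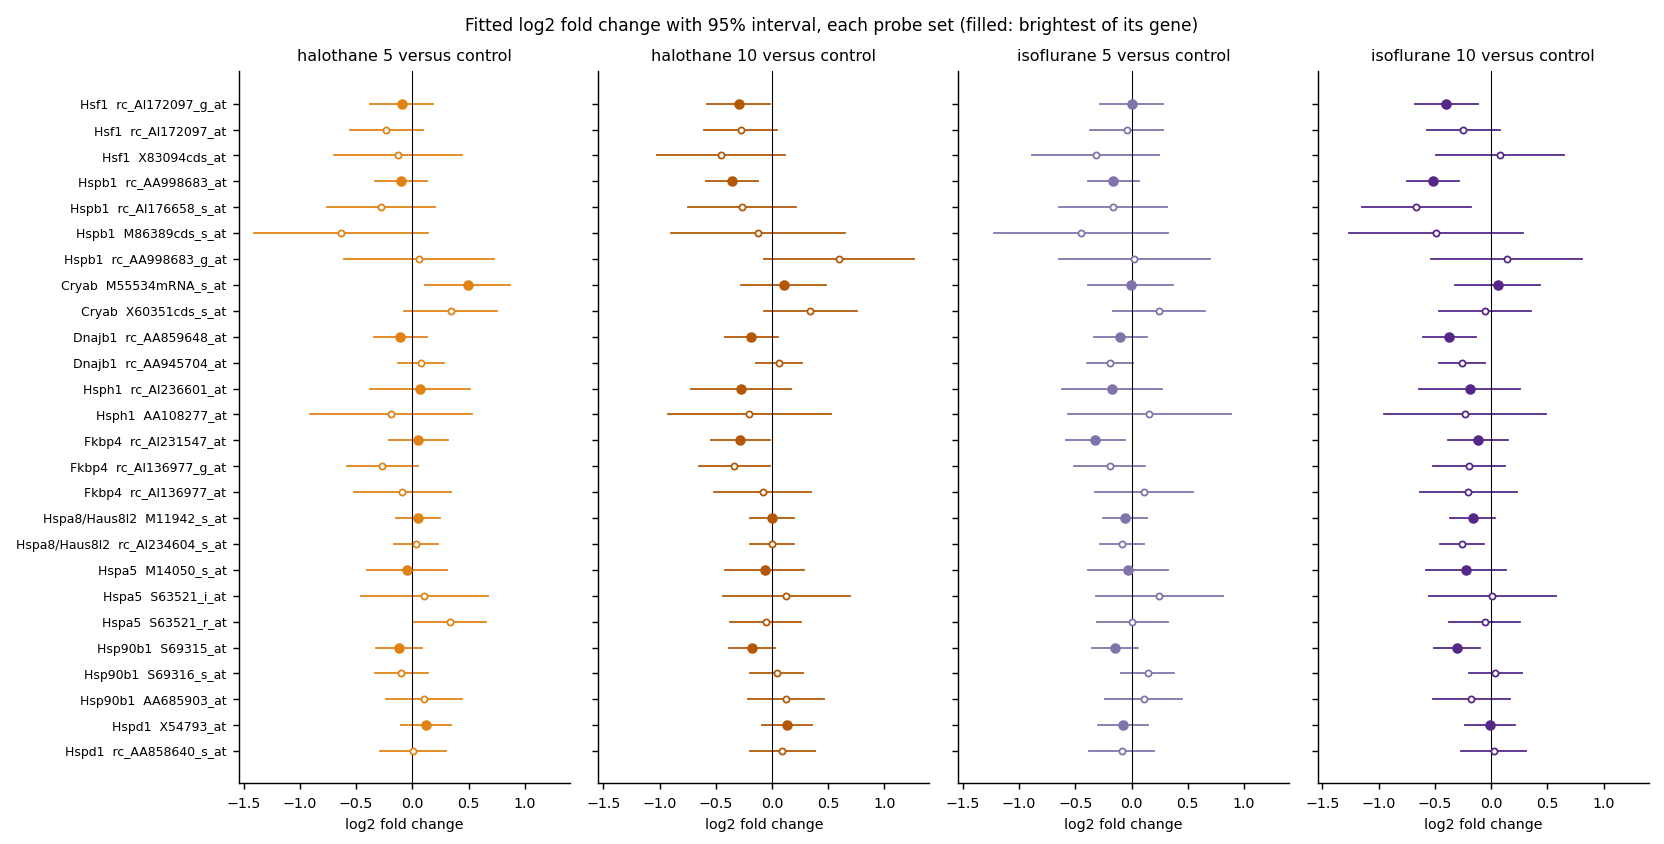
Log2 fold change against control (x axis) for each probe set (rows, named by gene), with limma's 95% interval, in 4 panels for 5 and 10 exposures to halothane and 5 and 10 exposures to isoflurane. Filled points mark the brightest probe set of a gene. Most intervals span 0, and in the panel of 10 isoflurane exposures the brightest probe sets of Hspb1, Hsf1, Dnajb1 and Hsp90b1 lie left of 0 with their intervals.

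The arrays also differed in a way the groups do not explain. By the mean log2 signal of 9 bacterial spike-in probe sets, 9 arrays had a high level and 15 a low level, with 0.57 between the nearest of them. The high level was found in replicate 3 of each of the 4 exposed groups and in 5 of the 12 controls. Without replicate 3 of every exposed group, a setting chosen after seeing the data, the members' medians became 0.023, 0.013 and 0.0084 after 5 halothane, 10 halothane and 5 isoflurane exposures, and -0.12 after 10 isoflurane exposures. Tissue markers were set against the floor: all 8 measured neuronal, 8 oligodendrocyte and 8 astrocyte markers lay above it on average in every group. So did all 4 measured skeletal muscle markers, so passing the floor does not tell tissues apart. Of 7 measured microglia markers, 2 did not pass it in controls. Summed signals in controls were 6575.1 to 8584.5 for the 8 neuronal and 283.0 to 799.8 for the 4 skeletal muscle markers. Summed signals of 5 measured choroid plexus markers, of 7, were 2344.6 to 4508.1 after 5 halothane, 4664.9 to 7168.7 after 10 halothane, 4681.2 to 6836.0 after 5 isoflurane and 4785.7 to 6006.3 after 10 isoflurane exposures, against 3450.2 to 5310.8 in controls, and their part in the members' values was not tested.

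Hsf1, the heat shock transcription factor, was read by 3 probe sets. Its brightest (rc_AI172097_g_at) read 287.1, 356.4 and 382.0 after 10 isoflurane exposures, against 318.9 to 577.9 (median 455.5) in controls, on the deposited linear intensity scale. The lowest exposed array lay below every control, and the others lay within the lower part of the control range. The log2 fold change was -0.40 ± 0.14 (SE), with limma's adjusted p = 0.371. After 10 halothane exposures the signals were 320.6, 393.5 and 382.7 and the log2 fold change was -0.30 ± 0.14, with adjusted p = 0.652. The 5-exposure groups lay closer to the controls, with 409.4, 438.5 and 407.9 after halothane (log2 fold change -0.096) and 499.7, 407.9 and 439.6 after isoflurane (log2 fold change 0.0014). Between 10 and 5 isoflurane exposures the Hsf1 difference was -0.40 ± 0.17 on the log2 scale, with adjusted p = 1.0 and 0.0% of all probe sets called in that comparison. The second Hsf1 probe set (rc_AI172097_at) had log2 fold changes of -0.25 after 10 isoflurane and -0.28 after 10 halothane exposures. The third (X83094cds_at), a dim one, had -0.45 after 10 halothane exposures. After 10 isoflurane exposures it read 36.9, 63.1 and 18.7, and its log2 fold change of 0.079 turned on single arrays: it was 0.54 without replicate 3 and -0.34 without replicate 2. Restricting the fit to high spike-in arrays reduced the Hsf1 value after 10 isoflurane exposures to -0.098, with 1 exposed array, against -0.57 on low spike-in arrays.

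Promoters of Hspb1, Dnajb1 and Hsph1 are shown as examples of members holding pairs of the element that Hsf1 binds. A link between Hsf1 and their values was not tested. The windows are the 250 bases before the annotated start of Hspb1 (chr12:26432302-26432551, minus strand), Dnajb1 (chr19:41431142-41431391, minus strand) and Hsph1 (chr12:10427118-10427367, plus strand), from RefSeq's rat assembly GRCr8, 5′ to 3′ on the gene's strand. Capitals mark heat shock element pairs, GAANNTTC or TTCNNGAA, searched on both strands; they share letters where they overlap.
Hspb1: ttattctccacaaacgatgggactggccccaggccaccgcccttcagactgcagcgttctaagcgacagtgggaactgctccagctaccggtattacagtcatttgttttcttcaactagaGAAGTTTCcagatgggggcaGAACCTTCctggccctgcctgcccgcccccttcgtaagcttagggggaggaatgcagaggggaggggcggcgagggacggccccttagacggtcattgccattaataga
Dnajb1: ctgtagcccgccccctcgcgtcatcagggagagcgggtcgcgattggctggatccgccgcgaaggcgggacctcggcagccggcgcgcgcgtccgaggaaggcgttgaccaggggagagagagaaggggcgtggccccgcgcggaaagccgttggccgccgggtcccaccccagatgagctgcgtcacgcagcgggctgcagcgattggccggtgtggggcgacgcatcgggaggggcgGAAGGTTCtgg
Hsph1: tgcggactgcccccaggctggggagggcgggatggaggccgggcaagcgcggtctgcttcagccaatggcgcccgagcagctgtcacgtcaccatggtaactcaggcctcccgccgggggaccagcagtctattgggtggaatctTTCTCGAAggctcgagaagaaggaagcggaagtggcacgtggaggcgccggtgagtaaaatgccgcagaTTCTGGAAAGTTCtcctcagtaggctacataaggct
In a window that adds the 50 bases after the start, either pair was found for 6 of the 8 members with a sequence (Hspb1, Dnajb1, Hsph1, Fkbp4, Hspa8 and Hspd1), and in 15.9% of all 33469 promoter windows. Both arrangements joined as a triplet (GAA, TTC and GAA with NN between neighbours, on either strand) were found for Hsph1, Hspa8 and Hspd1, and in 0.798% of all windows. In Hsph1 the triplet spanned bases -36 to -24 before the start. A match describes letters only, and Cryab and Hsf1 had no entry in the sequence table.

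Hspb1 encodes a small heat shock protein that keeps unfolding proteins from aggregating, and in the brain it is known from vessel walls and stressed glia. Its brightest probe set (rc_AA998683_at) read 386.0, 433.6 and 450.0 after 10 isoflurane exposures, against 525.9 to 795.6 in controls, whose median was 597.9. All 3 exposed arrays lay below all 12 controls, as did 0.433% of all probe sets in that comparison. The log2 fold change was -0.52 ± 0.11 (SE), with a 95% interval of -0.74 to -0.29. Limma's unadjusted p was 0.000112, which ranked 6 of 7389, and the adjusted p was 0.138, so the probe set did not pass. Signals after 10 halothane exposures were 509.7, 403.2 and 512.3, again below all 12 controls, as for 0.528% of all probe sets. This was a log2 fold change of -0.35 ± 0.11 with adjusted p = 0.390.

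The 5-exposure groups overlapped the controls at the same Hspb1 probe set. Signals were 493.3, 593.5 and 605.2 after halothane (log2 fold change -0.10) and 617.3, 451.7 and 564.3 after isoflurane (log2 fold change -0.16). In order of group mean, Hspb1 stood at 423 ± 33.2 after 10 isoflurane, 475 ± 62.3 after 10 halothane, 544 ± 84.6 after 5 isoflurane and 564 ± 61.5 after 5 halothane exposures (SD, n = 3 each), and at 607 ± 71.4 in controls (n = 12). Each step between neighbours in this order was smaller than the larger SD of the pair. The difference between 10 and 5 isoflurane exposures was -0.35 ± 0.14 on the log2 scale, with adjusted p = 1.0. Leaving out replicate 3 of the exposed groups gave -0.56 after 10 isoflurane and -0.41 after 10 halothane exposures, so these 2 values did not rest on it.

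The other Hspb1 probe sets were dimmer and disagreed in part. One (rc_AI176658_s_at) read 125.2, 195.2 and 132.3 after 10 isoflurane exposures, against 167.6 to 333.5 in controls, a log2 fold change of -0.66 ± 0.23 with adjusted p = 0.382. At this probe set 1 array stood apart after 10 halothane exposures, replicate 3 at 332.8, beside 144.2 and 153.4; the log2 fold change of -0.27 became -0.66 without it. Another (M86389cds_s_at) had log2 fold changes from -0.64 after 5 halothane exposures to -0.12 after 10 halothane exposures, the second of which was -0.27 without replicate 3. After 10 isoflurane exposures it had -0.49, or -0.96 without replicate 3. The dimmest (rc_AA998683_g_at), with a control mean of 29.6, had positive values of 0.60 after 10 halothane and 0.14 after 10 isoflurane exposures, opposite in sign to the brightest; without replicate 3 they were 0.37 and -0.023. Across the 24 arrays it correlated with the brightest at r = -0.095, and the probe set rc_AI176658_s_at did so at r = 0.47, as a description. The probe set shared with Asb2 (rc_AA799438_at) cannot be assigned to 1 gene. It averaged 103 after 10 isoflurane, 97.9 after 5 isoflurane, 83.2 after 5 halothane and 73.1 after 10 halothane exposures, against 79.4 in controls. After 10 isoflurane exposures its arrays spread from 68.7 to 146.7, against 42.5 to 100.9 in controls.

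Blood markers, which did not pass the test either, had median log2 fold changes of -0.63 after 10 isoflurane and -0.70 after 10 halothane exposures, and of -0.22 after 5 halothane and -0.095 after 5 isoflurane exposures. Of 7 markers, 4 were measured, and their summed signal ranged from 388.1 to 658.9 after 10 isoflurane exposures and from 437.2 to 470.2 after 10 halothane exposures, against 543.2 to 996.1 in controls. After 5 halothane exposures, where Hspb1 overlapped the controls, the sums were 445.2, 506.1 and 1010.7, and after 5 isoflurane exposures 623.0 to 685.7. None of the 4 was at the floor, and the part of blood content in the Hspb1 values was not tested. Summed signals of the 10 measured endothelial and mural markers, of 13, overlapped: 802.9 to 1040.0 after 10 isoflurane and 881.9 to 983.6 after 10 halothane exposures, against 748.1 to 1097.9 in controls.

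Cryab, a small heat shock protein made by oligodendrocytes and astrocytes and abundant in the eye lens, had higher signals after 5 halothane exposures, without passing the test. Its brightest probe set (M55534mRNA_s_at) read 355.5, 342.4 and 289.7 after 5 halothane exposures, against 182.6 to 344.2 (median 235) in controls. The highest exposed array exceeded every control and the others lay near the top of the control range, which is set by 1 high control. The log2 fold change was 0.49 ± 0.18 with adjusted p = 1.0, although the unadjusted p was 0.0126. After 10 halothane exposures the arrays spread from 169.6 to 352.5, and replicate 3 lay below every control: the log2 fold change of 0.10 became 0.39 without it. Cryab read 246.0, 240.8 and 209.9 after 5 isoflurane exposures and 222.1, 337.1 and 190.8 after 10, both within the control range; the log2 fold change of 0.058 after 10 was 0.23 without replicate 3. The second Cryab probe set (X60351cds_s_at) had log2 fold changes of 0.34 after 5 halothane, 0.34 after 10 halothane, 0.24 after 5 isoflurane and -0.052 after 10 isoflurane exposures. Its 5-halothane value was 0.61 without replicate 3, 0.11 without replicate 2 and -0.011 on high spike-in arrays, and its 10-isoflurane value was 0.12 without replicate 3. The summed signal of 8 measured oligodendrocyte markers, of 12, was 10352.8 to 11195.0 after 5 halothane exposures, inside the control range of 8868.5 to 12916.5. That of 8 measured astrocyte markers, of 10, was 10236.1 to 12760.8, against 9338.0 to 12320.7 in controls. The part of cell content in the Cryab values was not tested.

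Dnajb1 is a J-domain protein that hands clients to the Hsp70 chaperones and stimulates their ATPase. Its brightest probe set (rc_AA859648_at) read 255.5, 279.1 and 216.0 after 10 isoflurane exposures, against 255.4 to 375.3 (median 326.6) in controls. Replicate 3 lay below every control, and each of the other arrays lay below at least 10 of the 12 controls. The 2 lowest controls, at 255.4 and 257.2, were both of the high spike-in kind. The log2 fold change was -0.37 ± 0.11 with adjusted p = 0.319, and -0.27 without replicate 3. Signals of 311.9, 306.4 and 239.3 after 10 halothane exposures gave a log2 fold change of -0.18, which became -0.060 without replicate 3.

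The second Dnajb1 probe set (rc_AA945704_at) had higher signals after halothane than after isoflurane, though not past the test. At 10 exposures it read 330.0, 340.2 and 289.6 after halothane, against 284.9, 251.3 and 231.8 after isoflurane. At 5 exposures it read 321.0, 312.5 and 332.1 after halothane, against 269.6, 276.4 and 255.4 after isoflurane. Controls ranged from 257.2 to 388.9, and 3 of the 6 isoflurane arrays lay below all of them. The halothane arrays lay above the isoflurane arrays at both numbers of exposures, as did 2.58% of all probe sets at 10 exposures and 4.33% at 5, where 1 and 3 of the 24 member probe sets did. Halothane minus isoflurane was 0.32 ± 0.13 on the log2 scale at 10 exposures and 0.27 ± 0.13 at 5 exposures. Both adjusted p were 1.0, with 0.0% and 0.0135% of all probe sets called, and 0 of 24 member probe sets passed in either comparison. The brightest Dnajb1 probe set did not show that split at either number of exposures. At 5 exposures it read 270.4, 340.8 and 289.7 after halothane and 318.7, 299.8 and 284.6 after isoflurane. At 10 exposures its halothane arrays, at 239.3, 306.4 and 311.9, overlapped its isoflurane arrays, at 216.0, 255.5 and 279.1.

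Hsph1, which reloads Hsp70 chaperones by exchanging their nucleotide, had its lowest exposed signals on replicate 3. At its brightest probe set (rc_AI236601_at) replicate 3 read 277.8 after 10 halothane, 300.7 after 5 isoflurane and 337.8 after 10 isoflurane exposures, all below every control (440.1 to 711.4), and 502.1 after 5 halothane exposures. The 8 other exposed arrays read 536.8 to 664.4, inside the control range. Of the 5 high spike-in controls, 1 read 711.4 and the others 440.1 to 514.8, and the low spike-in controls read 452.5 to 636.1. The part of the spike-in level in these values was not tested. The log2 fold changes were -0.27 after 10 halothane, -0.17 after 5 isoflurane and -0.19 after 10 isoflurane exposures, with adjusted p = 0.784, 1.0 and 0.846. Without replicate 3 they became 0.081, 0.18 and 0.062. The 5-halothane value was 0.065 with it and 0.16 without it.

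The dimmer Hsph1 probe set (AA108277_at) had replicate 3 between 38.5 and 87.6 in the exposed groups and replicates 1 and 2 between 95.3 and 183.1. High spike-in controls read 75.7, 84.7, 98.1, 143.9 and 175.0, and low spike-in controls 113.7 to 152.4. The lowest of these controls were as low as the replicate 3 arrays, of which only 1 lay below every control. Its log2 fold changes of -0.19 after 5 halothane, -0.20 after 10 halothane, 0.16 after 5 isoflurane and -0.23 after 10 isoflurane exposures were 0.066, 0.54, 0.49 and -0.044 without replicate 3. The 2 probe sets correlated at r = 0.73 over the 24 arrays, as a description. The ratio of 3′ to 5′ beta-actin signal is a measure of RNA completeness. On the log2 scale it was 0.55 to 0.72 on the replicate 3 arrays and 0.69 to 1.10 on replicates 1 and 2. In controls it was 0.51 to 0.70 (median 0.61) at the high spike-in level and 0.44 to 1.07 (median 0.85) at the low level. Its part in the Hsph1 values was not tested.

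**Figure D2:**
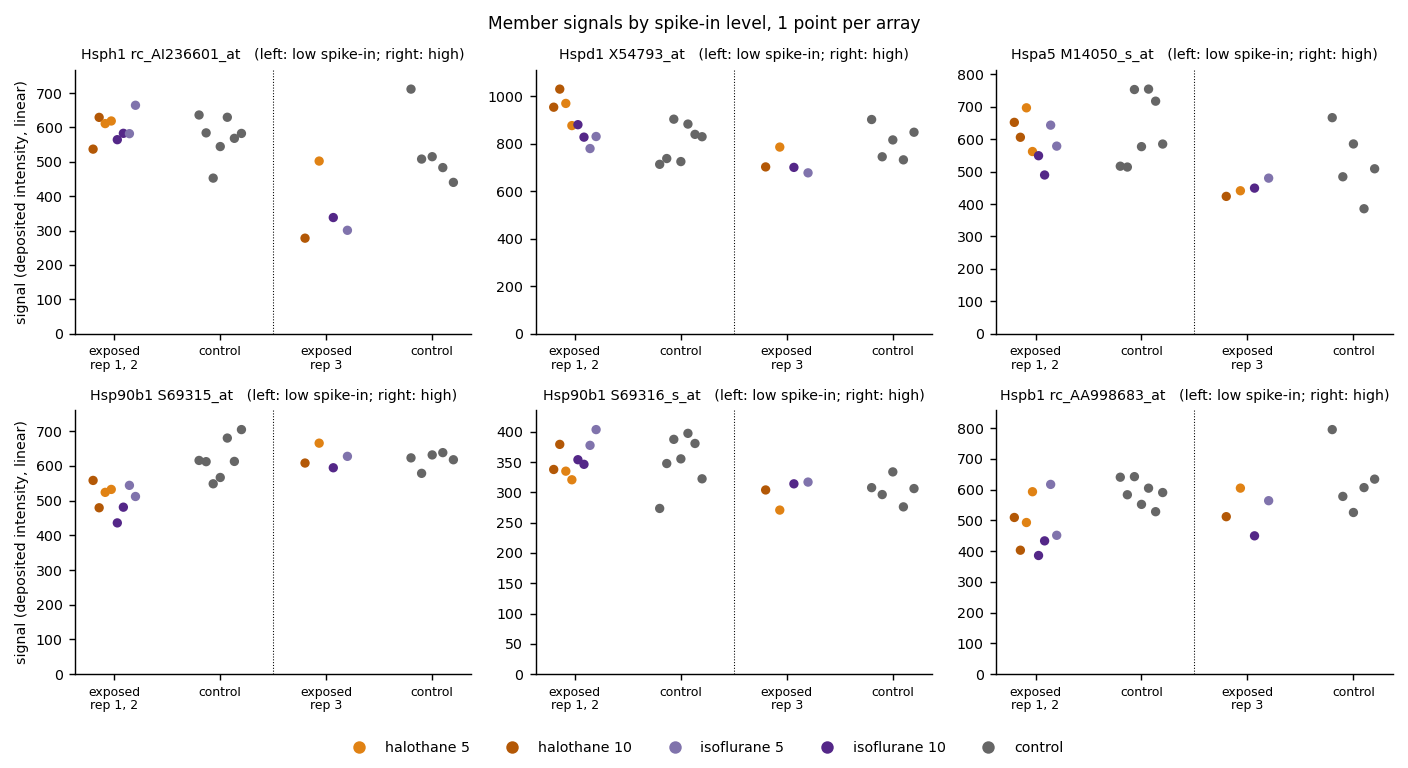
Deposited linear signal (y axis) of 6 probe sets for 5 member genes, 1 point per array, coloured by group. In each panel, low spike-in arrays are left of the dotted line (exposed replicates 1 and 2, then 7 controls) and high spike-in arrays right of it (exposed replicate 3, then 5 controls). Hsph1 signals of 277.8 to 337.8 on 3 replicate 3 arrays lie below all controls, while Hsp90b1 probe set S69315_at has its low signals on replicates 1 and 2.

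Fkbp4 is an immunophilin that joins Hsp90 in steroid receptor complexes. Its brightest probe set (rc_AI231547_at) read 217.3, 238.7 and 215.6 after 10 halothane exposures, and 275.9, 290.0 and 279.4 after 5. Controls ranged from 225.3 to 325.5, with a median of 273.0. After 10 halothane exposures 2 of the 3 arrays lay below every control, and after 5 all 3 lay just above the control median. Log2 fold changes against control were -0.28 ± 0.13 (adjusted p = 0.652) and 0.053 ± 0.13 (adjusted p = 1.0), and 10 minus 5 halothane exposures was -0.33 ± 0.16 (adjusted p = 1.0), where 0.0135% of all probe sets were called and 0 members.

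By group mean, isoflurane gave the opposite order at this Fkbp4 probe set, but the arrays overlapped. They read 266.3, 174.2 and 220.9 after 5 exposures and 212.6, 305.2 and 241.9 after 10. The log2 fold changes were -0.32 ± 0.13 after 5 and -0.12 ± 0.13 after 10 isoflurane exposures. Without replicate 2 of the 5-isoflurane group, the array at 174.2, the value was -0.16. The interaction of agent and exposure number was -0.54 ± 0.23 for Fkbp4, with adjusted p = 1.0. There 0 of 24 members and 0.0% of all probe sets were called, and Fkbp4 was the 1 member below an unadjusted p of 0.05 (background 1.00%). The 2 dimmer Fkbp4 probe sets did not show it in the same way: rc_AI136977_g_at was below control in every exposed group, from -0.34 after 10 halothane to -0.20 after either isoflurane course, and rc_AI136977_at ranged from -0.20 after 10 isoflurane to 0.11 after 5 isoflurane exposures (-0.39 and 0.23 without replicate 3).

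Hspa8, the constitutive Hsp70 of the cytosol that also strips clathrin coats from vesicles, was read only by the probe sets it shares with Haus8l2. The first of these (rc_AI234604_s_at) read 2960.0, 3156.4 and 3108.6 after 10 isoflurane exposures, against 3293.4 to 4602.7 in controls. All 3 exposed arrays were below all controls, as for 0.433% of all probe sets, and the log2 fold change was -0.26 ± 0.095 with adjusted p = 0.382. The second (M11942_s_at) read 4176.0, 3542.6 and 4085.1 after 10 isoflurane exposures, overlapping the controls at 3661.5 to 4998.1, with a log2 fold change of -0.16. In the other 3 exposed groups both probe sets had log2 fold changes between -0.085 and 0.050.

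The 2 members of the endoplasmic reticulum (ER) are induced through the ER stress response element, and their promoters are shown because both hold it. The windows are the 250 bases before the start of Hsp90b1 (chr7:23012294-23012543, minus strand) and Hspa5 (chr3:38452766-38453015, plus strand) in GRCr8, from RefSeq, 5′ to 3′ on the gene's strand. Capitals mark this element, CCAAT and CCACG with 9 bases of any kind between them, on either strand.
Hsp90b1: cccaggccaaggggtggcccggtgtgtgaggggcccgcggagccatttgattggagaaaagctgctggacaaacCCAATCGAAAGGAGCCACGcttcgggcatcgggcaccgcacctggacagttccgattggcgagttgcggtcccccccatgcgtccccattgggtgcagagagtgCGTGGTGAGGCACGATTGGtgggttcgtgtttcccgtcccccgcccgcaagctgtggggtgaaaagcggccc
Hspa5: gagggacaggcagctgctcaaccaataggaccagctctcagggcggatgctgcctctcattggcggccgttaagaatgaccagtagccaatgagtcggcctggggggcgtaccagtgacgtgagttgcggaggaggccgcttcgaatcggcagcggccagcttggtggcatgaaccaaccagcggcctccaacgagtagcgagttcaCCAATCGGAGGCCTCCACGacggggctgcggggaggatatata
The element was found in 22 of 33469 windows, or 0.066%, and for 2 of the 8 members with a sequence. Hsp90b1 held it at -176 to -158 and, on the other strand, at -72 to -54, and Hspa5 at -43 to -25. The related element ERSE-II (ATTGG and CCACG with N between them) was found for 0 of the 8 members and in 0.051% of windows.

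Hspa5 is the Hsp70 of the endoplasmic reticulum and a standard readout of its unfolded protein response. Its brightest probe set (M14050_s_at) read 549.1, 489.6 and 449.1 after 10 isoflurane exposures, 696.9, 562.0 and 441.0 after 5 halothane, 652.0, 606.0 and 423.6 after 10 halothane and 643.4, 578.7 and 479.9 after 5 isoflurane exposures, against 385.5 to 754.6 in controls. Every exposed array lay within the control range, and replicate 3 was the lowest of its group in all 4 exposed groups. The log2 fold changes ran from -0.22 ± 0.17 after 10 isoflurane exposures to -0.034 ± 0.17 after 5. Without replicate 3 they were -0.15 and 0.081, and the halothane values of -0.051 after 5 and -0.066 after 10 exposures were both 0.12. A second probe set (S63521_i_at) ranged from 0.011 after 10 isoflurane to 0.25 after 5 isoflurane exposures; without replicate 3 these were 0.034 and 0.40. The third (S63521_r_at) was near the floor of 16.5, and its unadjusted p of 0.0394 after 5 halothane exposures rested on 1 array at 37.2, beside 10.5 and 9.6.

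Hsp90b1 is the endoplasmic reticulum's Hsp90, and its 3 probe sets did not agree. S69315_at read 435.9, 481.2 and 594.8 after 10 isoflurane exposures, against 548.6 to 704.8 (median 616.9) in controls, a log2 fold change of -0.31 ± 0.099 with adjusted p = 0.361. Among replicates 1 and 2 of the exposed groups, 7 of 8 arrays lay below every control, at 435.9 to 558.3 for the 8. Replicate 3 read 594.8 to 665.7, inside the control range. This split by replicate number was made after seeing the data, and no share over all probe sets is given for it. At the brightest Hspb1 probe set 6 of the same 8 arrays lay below every control. Every other member probe set had 3 or fewer such arrays, so these are the 2 highest counts. Without replicate 3 the log2 fold change of S69315_at after 10 isoflurane exposures was -0.43, with adjusted p = 0.112, and it was -0.054 on high spike-in arrays. After 5 halothane, 10 halothane and 5 isoflurane exposures it was -0.12, -0.18 and -0.14, and without replicate 3 -0.23, -0.26 and -0.23. Averaged over the exposed groups without replicate 3, this Hsp90b1 probe set had -0.29 with adjusted p = 0.0604, the lowest of any member against control in any setting.

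The other Hsp90b1 probe sets did not have these low signals on replicates 1 and 2. S69316_s_at read 353.8, 346.2 and 314.0 after 10 isoflurane exposures, against 273.4 to 397.3 in controls (log2 fold change 0.035). AA685903_at read 222.9, 299.8 and 253.6 after 10 isoflurane exposures, against 230.6 to 377.3 in controls (log2 fold change -0.17). Over the 24 arrays, S69315_at correlated with AA685903_at at r = -0.25 and with S69316_s_at at r = -0.43, while AA685903_at and S69316_s_at correlated at r = 0.62. These are descriptions over arrays that share scaling and labelling.

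Hspd1, the mitochondrial chaperonin, lay close to control on average, with single arrays outside the control range on both sides. Its brightest probe set (X54793_at) read 954.2, 1030.4 and 702.6 after 10 halothane and 970.1, 876.7 and 786.2 after 5 halothane exposures. After isoflurane it read 880.5, 828.0 and 700.6 for 10 exposures and 780.0, 830.7 and 677.6 for 5, against 713.5 to 903.7 in controls. Replicate 3 was the lowest array of each exposed group, below every control in 3 of the 4. The halothane arrays at 970.1, 954.2 and 1030.4 lay above every control. Log2 fold changes ran from -0.080 after 5 isoflurane to 0.14 after 10 halothane exposures, each with an SE of 0.11. Without replicate 3 the 5-isoflurane value was 0.0026 and the 10-halothane value 0.30. The second probe set (rc_AA858640_s_at) had log2 fold changes between -0.088 and 0.092, and between -0.024 and 0.25 without replicate 3.

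**Figure D3:**
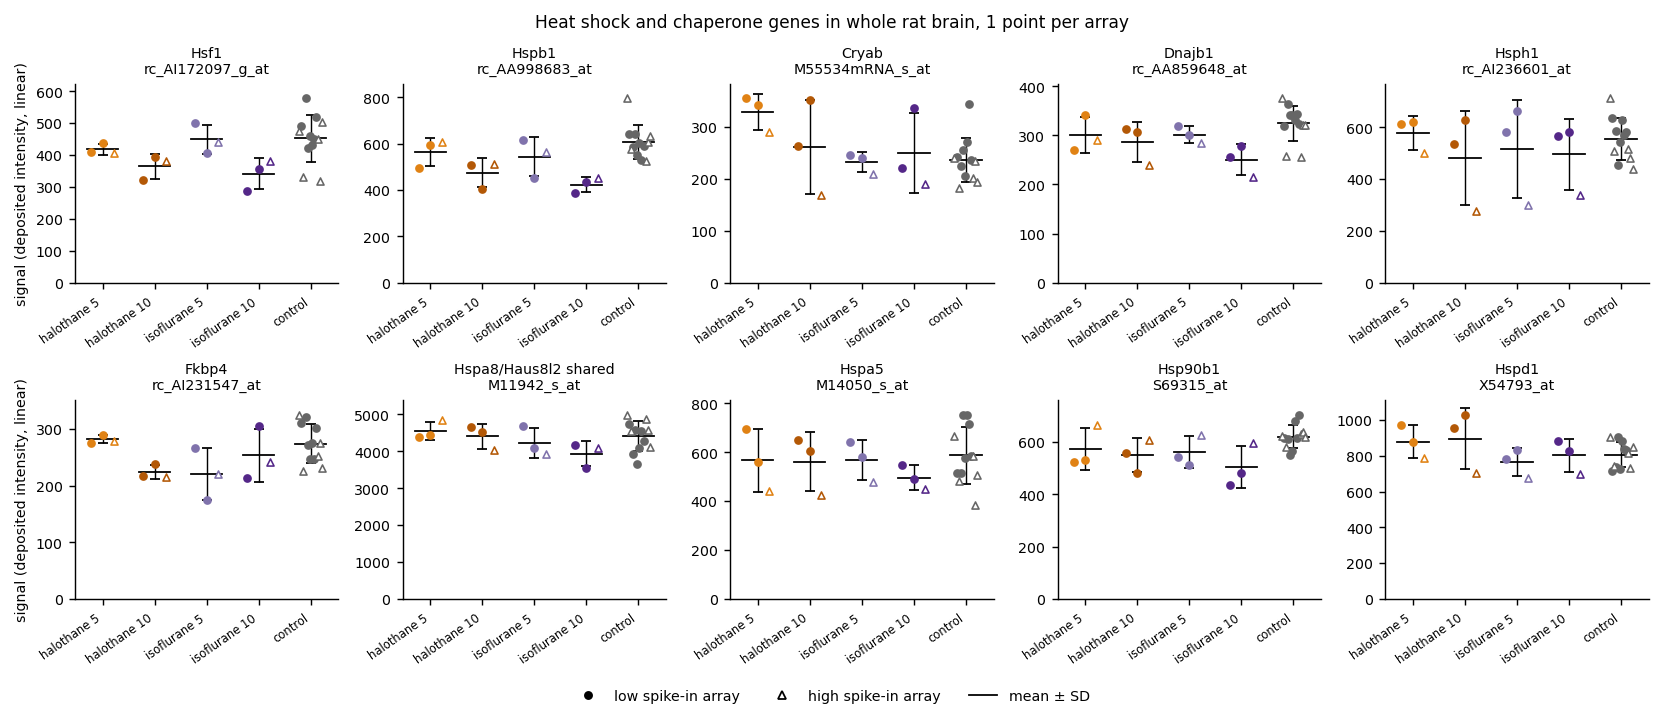
Deposited linear signal (y axis, from 0) of the brightest probe set of each of the 10 genes, 1 point per array, for 5 and 10 halothane exposures, 5 and 10 isoflurane exposures and control. Open triangles are arrays with a high spike-in level, and lines are the mean ± SD. The Hspb1 arrays after 10 exposures to either agent lie below all 12 controls, and exposed groups of Hspa5 and Hspd1 overlap them.

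Correlations between member genes were computed over the 24 arrays on deviations from group means, for 3 pairs that have their own probe sets. Hsph1 and Dnajb1 correlated at r = 0.57 (permutation p = 0.00608, adjusted 0.0182 over the 3 pairs) and rho = 0.63 (permutation p = 0.00136, adjusted 0.00408). Without the 2 arrays farthest from the Hsph1 median r was 0.51, and without replicate 3 of the exposed groups 0.41. Within the 15 low spike-in arrays it was -0.0055, and within the 9 high spike-in arrays 0.44, so the relation did not hold within the low level. Hspa5 and Hsp90b1 correlated at r = -0.41 (permutation p = 0.0488, adjusted 0.0733) and rho = -0.39 (permutation p = 0.0618, adjusted 0.0927), at -0.37 without the 2 arrays farthest from the Hspa5 median. Within spike-in levels it was -0.038 on low and -0.20 on high arrays. The sign depended on the Hsp90b1 probe set: this value is for S69315_at, and in place of it S69316_s_at gave r = 0.81 and AA685903_at r = 0.51 with Hspa5, a comparison added after seeing the data. Hspb1 and Cryab gave r = -0.22 (permutation p = 0.297, adjusted 0.297) and rho = -0.16 (permutation p = 0.454, adjusted 0.454), with -0.30 without the 2 farthest arrays, -0.16 on low and 0.29 on high spike-in arrays.

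**Figure D4:**
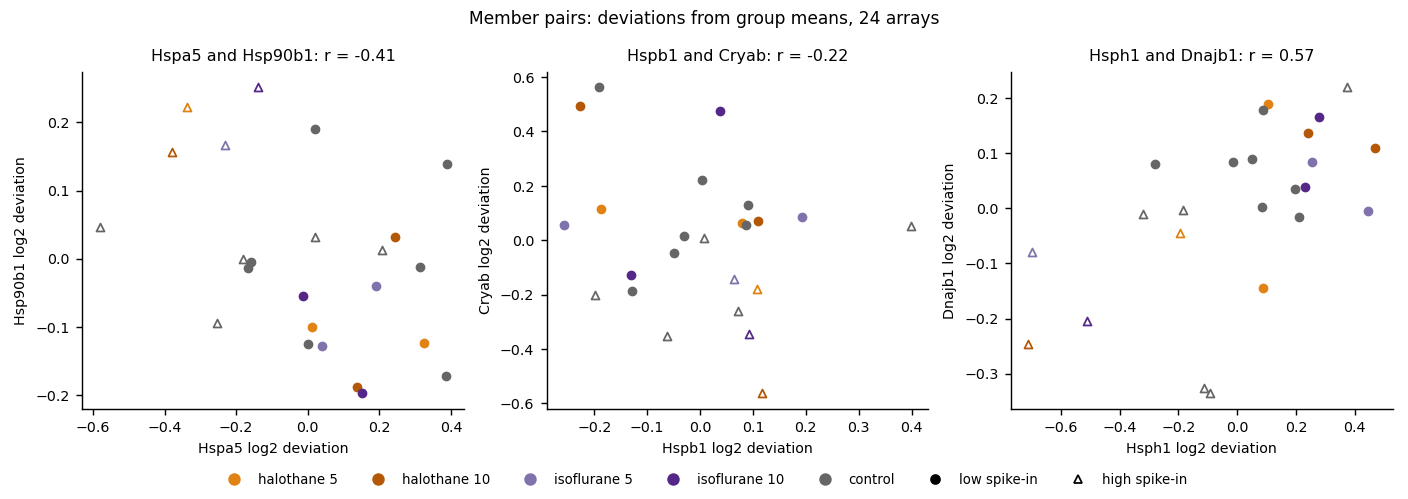
Deviation from the group mean on the log2 scale for Hspa5 and Hsp90b1 (S69315_at), Hspb1 and Cryab, and Hsph1 and Dnajb1 (x and y axes), 1 point per array, 24 arrays, coloured by group. Filled circles are low and open triangles high spike-in arrays. In the Hsph1 and Dnajb1 panel (r = 0.57) the arrays below 0 on both axes are all open triangles.

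The genes whose signal was most like a member's over the 24 arrays were found with Pearson's r on the log2 scale. They were Ptpn5 (0.87) and Ywhab (0.84) for Hsph1, Gfra2 (0.85) and Ctnnd2 (0.82) for Dnajb1, and Pex14 (0.81) and St3gal5 (0.81) for Hspb1. For Hsf1 they were Rxrb (0.85) and Gja5 (0.78), for Fkbp4 Egr4 (0.74) and Syt3 (0.74), and for Cryab Rabggtb (0.70) and Snap25 (0.70). Hspa5 was most like Polb (0.84) and Ugcg (0.79), Hsp90b1 like Or1f20 (0.76) and Mchr1 (0.74), and Hspd1 like Oaz1 (0.87) and Lrrc59 (0.83). The points share arrays and scaling, so these are descriptions.

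Other genes of the same systems gave 0 called genes in either direction in any comparison with control. Of 24 other cytosolic heat shock genes 13 were measured, and their median log2 fold change after 10 isoflurane exposures was -0.14, with 8 of 13 below 0, against a median of -0.0027 over all probe sets. The lowest p there was that of the lens small heat shock protein Cryaa, at 152 ± 21.8 after 10 isoflurane exposures, against 198 ± 35.6 in controls (log2 fold change -0.37, adjusted p = 0.459). Hspa1a, the stress-inducible Hsp70, averaged 37.5 ± 11.3 after 10 halothane exposures, against 46.2 ± 12.6 in controls (log2 fold change -0.30, adjusted p = 0.804). Of 21 cochaperones and immunophilins 10 were measured, with a median of -0.11 after 10 isoflurane exposures. The kinase cochaperone Cdc37 averaged 735 ± 96.4 after 10 halothane exposures, against 848 ± 130.0 in controls (log2 fold change -0.20, adjusted p = 0.714).

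Of 29 genes of ER folding and its stress response 16 were measured, with a median of -0.046 after 10 isoflurane exposures. The disulphide isomerase Pdia6 averaged 406 ± 33.2 after 10 isoflurane exposures, against 519 ± 42.0 in controls, a log2 fold change of -0.35 ± 0.11 with adjusted p = 0.306. Dnajb9, an ER J-domain protein, had -0.61 (adjusted p = 0.459), and the oxidase Ero1b had 0.39 (adjusted p = 0.484), so members of the list lay on both sides of 0. Pdia4 had the lowest p of this list after either halothane course, with -0.43 after 10 exposures (adjusted p = 0.652) and -0.37 after 5. Of 12 mitochondrial chaperones and import genes 8 were measured, with a median of -0.0063 after 10 isoflurane exposures. Grpel1, the mitochondrial nucleotide exchange factor, had -0.21 after 10 isoflurane exposures (adjusted p = 0.618), and Hspe1, the partner of Hspd1, had 0.17 (adjusted p = 0.746). Of 11 subunits of the cytosolic chaperonin and prefoldin 3 were measured, with a median of 0.16 after 10 isoflurane exposures. Of 10 stress-induced genes and regulators 5 were measured, and their median was 0.090 after 10 isoflurane exposures, with Atf3 at 0.15 and Hmox1 at 0.090.

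**Figure D5:**
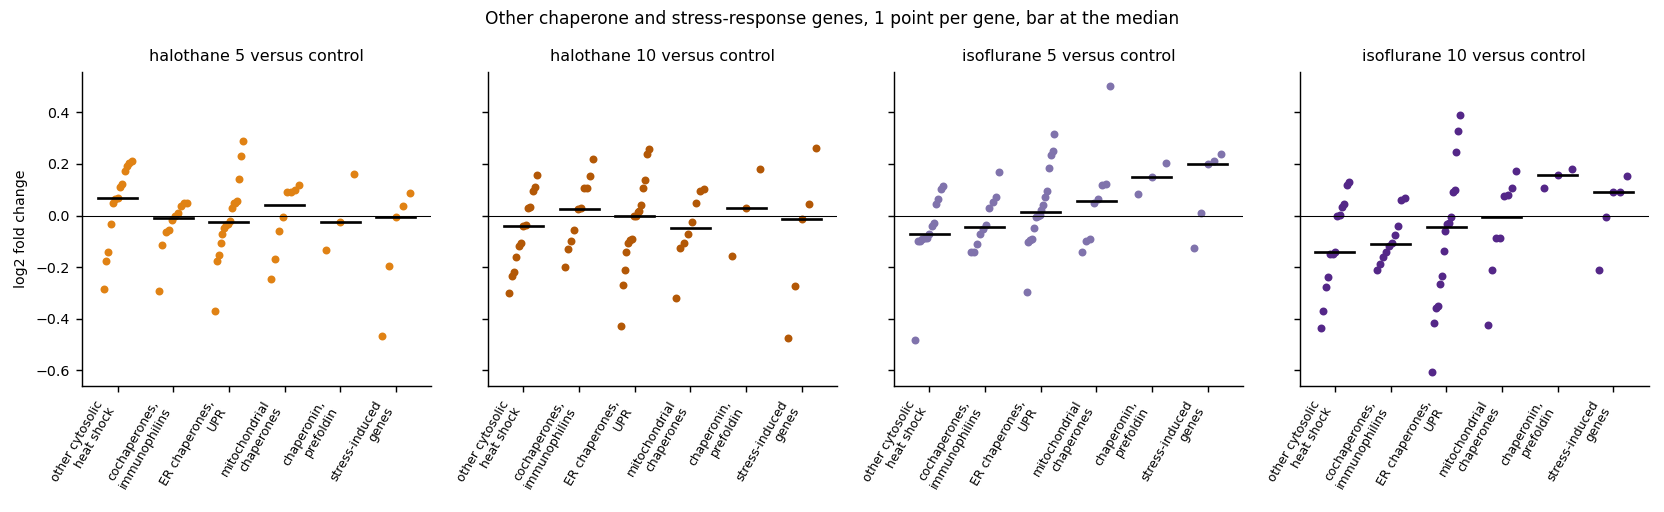
Log2 fold change against control (y axis) of the measured genes of 6 lists, 1 point per gene and a bar at the list's median, for 5 and 10 exposures to halothane and 5 and 10 exposures to isoflurane. Points lie on both sides of 0 in most lists, and 0 genes of these lists passed the test.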

How the data were processed

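Transcript levels in whole rat brain were deposited by the authors as 1 linear intensity per probe set and array; the sources used here do not name the summarising and scaling software. Trimmed means (2% cut at each end) of 150.1 to 150.2 and medians of 53.5 to 64.9 showed that the arrays had been scaled alike, and this scaling was kept. For this report, values under 16.5, the table's 25th percentile, were set to it before log2 was taken, which understates differences of dim probe sets. Of 8799 probe sets, 59 controls were left out and the 7389 that exceeded this floor on 3 or more arrays stayed in. A linear model (limma 3.58.1, run in R 4.3.3, with moderated variances that follow intensity, two-sided) was fitted to all 24 arrays in 5 groups for 10 comparisons, with Benjamini-Hochberg adjustment over the 7389; a call needed an adjusted p under 0.05. The number of arrays limits the precision. The procedure was tested on simulated data with known log2 changes in the group of 10 halothane exposures. It called 12 of 50 changes of 0.5, 44 of 50 changes of 1 and 50 of 50 changes of 2, with 9 false calls. Changes of 0.5 were thus mostly missed there. The changes were placed only in probe sets well above the floor, with noise drawn independently for each array and no shared replicate effect. With so many planted changes, the adjusted threshold was easier to pass than in the comparisons reported here. These shares therefore do not give the chance of a call for a member.

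Gene symbols come from the platform annotation, which can be old, checked against a current RefSeq gene table where 6994 of 7018 single-symbol probe sets were found. All member probe sets were named, the brightest (highest mean over all arrays) standing for a gene; of each pathway list, genes among the 3 lowest p in a comparison with control; and the 2 genes most like each member. Members and lists were chosen with earlier results of these data known. Correlations used permutation tests with 100000 resamples (scipy 1.17.1). Alternatives were centring on array medians, quantile normalization, the 10th or the 40th percentile as floor, keeping all probe sets or only those over 58.9 on 12 or more arrays, a variance without trend, array weights, only the groups compared, controls 10 to 12 left out, the replicate number or the spike-in level as a block, either spike-in level alone, and each array left out in turn; leaving out replicate 3 of every exposed group, and the other Hsp90b1 probe sets in its correlation, were added after seeing the data.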

Additional observations from a re-analysis of the deposited data

Results flagged for a closer look

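At the Fkbp4 probe set rc_AI231547_at, all 3 arrays after 5 halothane exposures lay above the control mean and all 3 after 5 isoflurane exposures below it. Halothane minus isoflurane was 0.38 on the log2 scale (limma's unadjusted p = 0.0285, adjusted p = 1.0). At the same Fkbp4 probe set, all 3 arrays after 10 halothane exposures lay below the control mean and all 3 after 5 halothane exposures above it, a difference of -0.33 (unadjusted p = 0.0494, adjusted p = 1.0).

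At the Dnajb1 probe set rc_AA945704_at, all 3 arrays after 5 halothane exposures lay above the control mean and all 3 after 5 isoflurane exposures below it. The difference was 0.27 (unadjusted p = 0.0429, adjusted p = 1.0), and none of these differences passed limma's test. Both probe sets were picked because their arrays lay on opposite sides of the control mean, so the unadjusted p-values are not separate evidence. At 5 exposures every halothane array lay above every isoflurane array for 4.33% of all probe sets.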

How the results depend on the processing

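The count of member probe sets called was 0 in all 10 comparisons under each of 15 other settings and with each of the 24 arrays left out, and 0 of 120 member values passed in any of them. The replicate block, in which only controls 1 to 3 inform the comparisons with control, also gave 0, between exposed groups too. Deviations of same-numbered arrays of different exposed groups correlated at 0.087 to 0.52, over 0.1 in 16 of 18 pairs, and 11 of 12 exposed arrays correlated best with their own number. Pairs with controls 1 to 3 ran from -0.18 to 0.31. The labels give the numbers no meaning, so this is a hint from the data that exposed arrays share a replicate effect, which the comparisons between exposed groups do not model. Signs were less stable: of 24 member probe sets, 10 kept their sign under all of these after 10 isoflurane exposures, 12 after 10 and 10 after 5 halothane exposures, and 12 after 5 isoflurane exposures. For Hspb1 (rc_AA998683_at) after 10 isoflurane exposures the log2 fold change ranged from -0.66 with the replicate block to -0.45 without replicate 1 of that group, and its lowest adjusted p was 0.0824, with quantile normalization. The lowest of any member against control was 0.0604, for Hsp90b1 S69315_at averaged over the exposed groups without replicate 3. The correlation of Hspa5 and Hsp90b1 was -0.038 on low and -0.20 on high spike-in arrays, -0.14 without centring on group means and -0.14 without replicate 3 of the exposed groups, and reversed to 0.81 with Hsp90b1 probe set S69316_s_at and 0.51 with AA685903_at. That of Hspb1 and Cryab was 0.29 on high spike-in arrays, and that of Hsph1 and Dnajb1 was -0.0055 on low ones; the cause was not tested. The 3 planned pairs with Hspa8 were not run, because it has 0 probe sets of its own. Fits on high spike-in arrays rest on 1 array per exposed group, assumed to vary like the controls. Dim probe sets, such as Hspb1 rc_AA998683_g_at and Hspa5 S63521_r_at, lie near the floor, which limits what they can show.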
